A study of Bos taurus with 10 samples.

Results

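Antioxidant defence in a cell is shared among several enzyme systems. Superoxide dismutases turn superoxide into hydrogen peroxide, which catalase, the glutathione peroxidases and the peroxiredoxins remove. Thioredoxin and glutathione supply the electrons, and their reductases draw on NADPH. The transcription factor NRF2, encoded by NFE2L2, switches on many of these genes and is held back by KEAP1, while metallothioneins and ferritin bind the metals that would otherwise feed radical chemistry. Early embryos meet oxidative stress as their metabolism shifts at blastocyst formation, and several of these genes are widely used as markers of embryo quality.

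A list of 38 genes of this defence was followed in bovine embryos. Its members were all array probes, controls left out, whose gene name in the scanner files was on the list. The list names 37 of its genes on 86 of the 43653 probes, and GLRX, a glutaredoxin, on none. Of the 86 probes, 79 carried accessions that lead to the same symbol in a RefSeq table (ARS-UCD2.0), 5 carried accessions that are not in it, and both GSTP1 probes led to the symbol LOC281806. Both GSS probes are described in the files as a prion protein, but their accession leads to GSS in the table. The 3 probes named GLRXL carry an accession that leads to GLRX, and their values are given apart.

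The embryos were flushed on day 7 from superovulated cows that had received an intravenous infusion of vehicle (DMSO), of senktide at 30 nmol/min or of senktide at 300 nmol/min. Senktide is a peptide that activates the neurokinin-3 receptor. It was infused for 2 h from 48 h of the superovulation programme, with inseminations at 108 and 120 h. There were 2 vehicle samples and 4 at each senktide dose, with 1 single-colour array per sample. Titles, source and tissue labels name embryos, whereas the extraction text speaks of endometrium. Neither the origin of the samples in separate cows nor the number of embryos pooled is stated. The p-values therefore cover the variation among these arrays alone, and that variation may be technical. In whole embryos, fewer cells of a type and less RNA per cell cannot be told apart.

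The arrays lay on 3 slides, each scanned at its own time. Replicate 1 of each group was on slide 1 and replicate 2 on slide 2. On slide 3 were the remaining senktide arrays, replicates 3 and 4 at either dose, and no vehicle array. A probe counted as detected where the scanner software flagged it well above background, and between 3128 and 8542 probes were so on an array. Of the trophectoderm marker genes, 7 of 15 were detected on all 10 arrays, KRT8, KRT18, GATA2, GATA3 and TFAP2C among them, and SOX2, KLF4 and SPIC of the 6 inner cell mass markers were too. CDX2 and NANOG, which define these lineages, were detected on none. By the probe of each gene detected on most arrays, of 10 leukocyte markers LYZ was found on all arrays, PTPRC on 5, ITGB2 on 4, TYROBP on 1 and 6 on none. Of 4 blood markers on the array HBA was found on 4 arrays, and of 5 of the uterine or oviduct epithelium CLU was found on 7 and PIGR and MUC1 on 1 each. Of 6 stroma markers COL1A2 was found on 3 and DCN on 2, and of 8 of oocyte and cumulus ZP3 on 2. Apart from LYZ, these probes were detected on senktide arrays and on no vehicle array, although another CLU probe was detected on 1 vehicle array. The other markers of these lists, HBB, OVGP1, COL1A1 and ZP2 among them, were found on none. The summed scaled signal of the 10 leukocyte markers was 0.68 to 0.73 in vehicle, 0.38 to 0.79 at 30 nmol/min and 0.45 to 0.58 at 300 nmol/min. For the 5 epithelial markers it was 0.31 to 0.51, 0.08 to 0.43 and 0.08 to 0.29. The stroma markers, detected on no vehicle array, had sums of 0.25 to 0.51, 0.08 to 0.23 and 0.10 to 0.23. Those of oocyte and cumulus, also undetected in vehicle, had 0.31 to 0.53, 0.10 to 0.51 and 0.09 to 0.25. The sums thus hold signal of undetected probes and do not measure cell content. The part of such cells in the results was not tested.

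The probes themselves differ in ways that bear on the values, so some are shown first. They come from the scanner files, are written 5′ to 3′ and have their positions in build Btau_3.1. For the light ferritin chain FTL, an iron storage subunit, a pair of probes overlaps over 47 bases and differs there at 1 base, shown in capitals. It is G3C, with the base of the upper probe first and the position counted from the 5′ end of the lower probe. The upper probe (chr18:55548483-55548542, plus strand) was detected on 0 arrays and the lower (chr18:55548496-55548555, plus strand) on 6.
FTL upper: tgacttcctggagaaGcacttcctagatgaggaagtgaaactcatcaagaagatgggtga
FTL lower: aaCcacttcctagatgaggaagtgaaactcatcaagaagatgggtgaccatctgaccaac
For the heavy ferritin chain FTH1, which oxidises iron before it is stored, a pair overlaps over 52 bases, and the lower probe has 1 extra base in a run, marked by a capital at 1 of 2 equivalent places. Both were detected on all 10 arrays. The files place the upper at chr29:42118825-42118884 and 21 bases of the lower at chr29:42118487-42118507, both on the minus strand.
FTH1 upper: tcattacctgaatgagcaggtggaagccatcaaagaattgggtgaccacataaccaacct
FTH1 lower: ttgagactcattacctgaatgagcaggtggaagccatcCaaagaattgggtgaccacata
For GPX1, a cytosolic selenium-dependent glutathione peroxidase, a pair covers the same 60 bases (chr22:51685240-51685299) on opposite strands. The plus-strand probe was detected on 2 arrays and its reverse complement on 0.
GPX1 plus: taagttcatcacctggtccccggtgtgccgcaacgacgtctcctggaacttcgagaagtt
GPX1 minus: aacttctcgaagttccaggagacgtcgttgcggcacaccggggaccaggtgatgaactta
For GPX4, the peroxidase that repairs lipid peroxides in membranes, the probe nearer the 5′ end of the transcript (chr7:42614464-42614523, plus strand) was detected on 3 arrays. The one nearer the 3′ end, whose 60 bases span chr7:42614859-42614990 on the plus strand, was detected on 9.
GPX4 nearer 5′: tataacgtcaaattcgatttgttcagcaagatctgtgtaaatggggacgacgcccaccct
GPX4 nearer 3′: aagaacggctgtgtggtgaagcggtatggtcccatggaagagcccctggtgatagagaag
HMOX2, the constitutive haem oxygenase, has 2 probes (chr25:4253645-4253704 and chr25:4254083-4254142, plus strand), detected on 1 and 8 arrays, and the second has the smallest p-value of the members against vehicle. The first 30 bases of each are shown.
HMOX2 nearer 5′: agaaaacaagcaaccaataaaagccagaga
HMOX2 nearer 3′: gagttggggtcagtttggccgtgggctgtc

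Where the first and the last probe of a transcript differed in detection, the last mostly led. Of 24 transcripts with several member probes, the probe nearest the 3′ end was detected on more arrays than the probe nearest the 5′ end in 15, on fewer in 1 (GSTM3, a glutathione transferase, 0 against 1) and on equally many in 8. Where the 2 counts were unequal, the last probe led in 93.8% of member transcripts and in 87.0% of the RefSeq mRNA accessions on the array (2847 against 424 of 6640). TXNRD1, the cytosolic thioredoxin reductase, and PRDX5, a peroxiredoxin of mitochondria and peroxisomes, were each detected on 10 arrays by the last probe and on 0 by the first. GSR, glutathione reductase, had 9 against 1. Inner probes were left out and did not all keep this order. PRDX6 was detected on 4 arrays by the probe at base 508 and on 0 by those at bases 1025 and 1084.

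**Figure D1:**
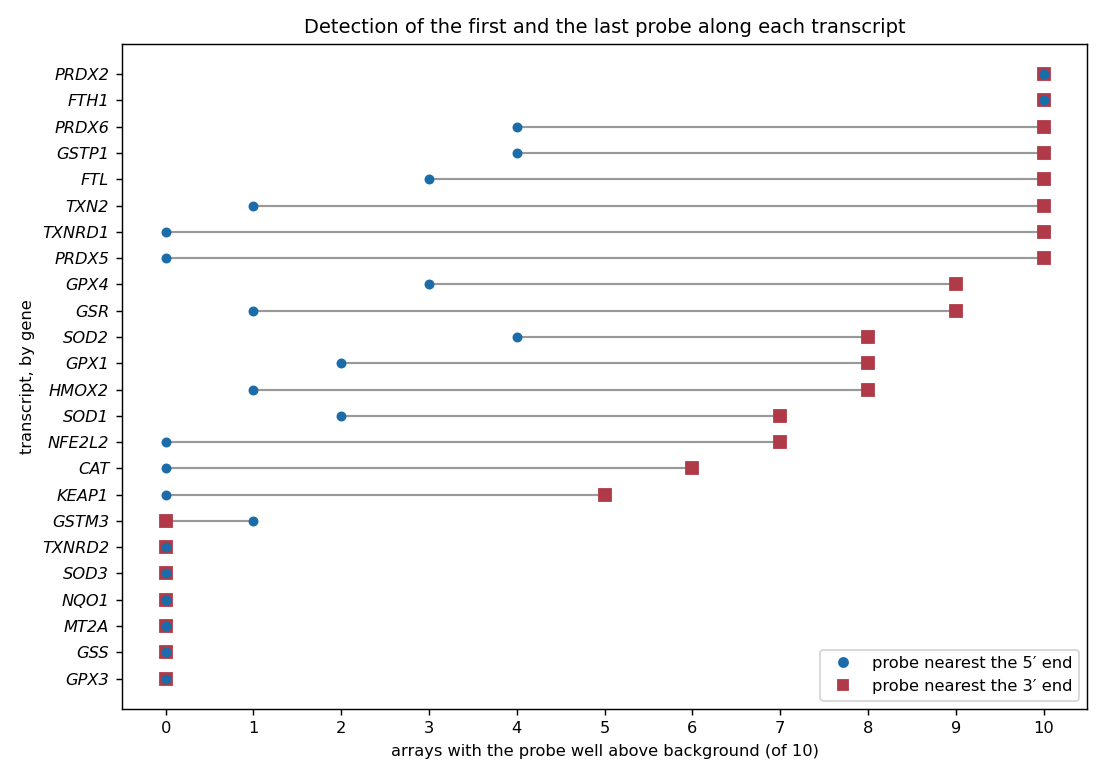
Arrays (of 10) on which the probe nearest the 5′ end (blue circle) and the probe nearest the 3′ end (red square) of each transcript were well above background, for 24 transcripts with several member probes; a grey line joins the pair. The red square lies to the right in 15 transcripts, to the left in 1 and on the circle in 8.

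Of the 86 probes, 19 (22.1%) were detected on all 10 arrays, 28 on 2 to 9, 6 on 1 and 33 (38.4%) on none. Over all probes of the array, 5.71% were detected on all arrays and 74.4% on none. By their best probe, 11 genes were found on all arrays. They were PRDX1, PRDX2, PRDX4, PRDX5 and PRDX6, TXN, TXN2, TXNRD1, GSTP1, FTH1 and FTL. Another 14 were found on 2 to 9 arrays, and SRXN1, GSTM3 and MGST1 on 1. The 9 genes found on none were the extracellular enzymes SOD3 and GPX3, the mitochondrial reductase TXNRD2, the glutathione synthesis genes GCLC and GSS, the transferases GSTO1 and MGST2, and the inducible NRF2 targets HMOX1 and NQO1. For these genes the arrays give no level.

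By role, the peroxiredoxins, thioredoxins and glutaredoxins had 8 of 12 genes detected on all arrays, and metal binding had 2 of 3. Superoxide and peroxide removal had 0 of 7, glutathione synthesis and recycling 0 of 4, the transferases 1 of 6 and the NRF2 axis with the haem oxygenases 0 of 5. SOD1 and SOD2, the cytosolic and mitochondrial superoxide dismutases, were each detected on 8 arrays by their best probe, and catalase (CAT) on 6.

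The number of member probes above background was compared between the groups. Counts per array were 21 and 27 in vehicle, 30, 23, 43 and 46 at the lower dose, and 30, 36, 47 and 44 at the higher dose. The 300 nmol/min arrays all lie above the vehicle arrays, while the 30 nmol/min arrays overlap them. The shares were 27.9% ± 4.93 (SD, n = 2), 41.3% ± 12.6 (n = 4) and 45.6% ± 8.98 (n = 4). Over all probes of the array the shares were 8.29%, 14.5% and 15.5% in the same order. Exact 2-sided permutation tests against vehicle gave p = 0.267 at 30 and p = 0.133 at 300 nmol/min. With 15 arrangements 0.133 is the smallest p that such a test allows, so neither could have passed 0.05. Between the doses the exact permutation test, over 70 arrangements, gave p = 0.571.

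Slide moved with these counts. Among the 8 senktide arrays, 52.3% of member probes were detected on slide 3 against 34.6% on slides 1 and 2 (exact permutation p = 0.0286, the smallest that 70 arrangements allow). All 4 arrays of slide 3 had more detected member probes than any other array. Against the vehicle array of the same slide, the 30 nmol/min array had 9 more on slide 1 and 4 fewer on slide 2, and the 300 nmol/min array had 9 more on each. Over all probes of the array, 19.1% were detected on slide 3 and 10.97% on slides 1 and 2 (exact permutation p = 0.0286). The part of slide in the difference from vehicle was not tested beyond these within-slide values.

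**Figure D2:**
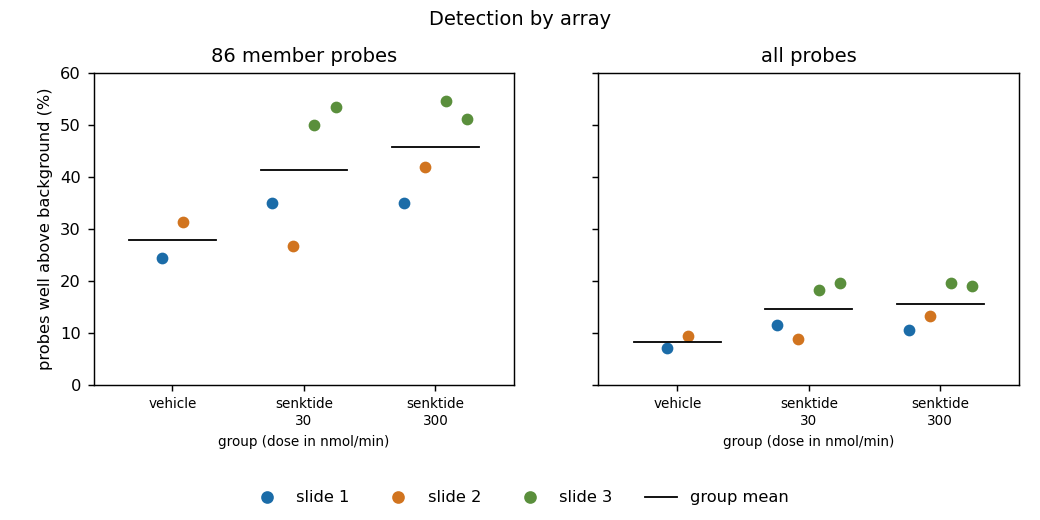
Percentage of the 86 member probes (left) and of all probes of the array (right) well above background on each array, by group; each point is 1 array coloured by slide and the line is the group mean. In both panels the 4 arrays of slide 3 lie highest, and the member probes stand at 24.4% to 54.7% where all probes stand at 7.17% to 19.6%.

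Signals were compared on a log2 scale after division by the processed signal at the 75th percentile of the 2492 probes detected on all arrays, taken array by array. This is called the scaled signal. The signal at that percentile ran from 79.5 on a vehicle array to 482 on a slide 3 array. The fit took in the 8936 probes detected on at least 2 arrays, with limma and p-values adjusted by Benjamini-Hochberg over all of them. It covered 47 member probes of 25 genes, and for each gene the probe with the highest mean was read. Of the 25, 7 were detected on no vehicle array and entered through senktide arrays alone (SOD2, GLRX2, GCLM, HMOX2, NFE2L2, KEAP1 and MT2A), so counts and medians over the 25 are given as a description. Both doses share the same 2 vehicle arrays, so their differences from vehicle are not independent.

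No member probe passed the threshold of 0.05 in any group comparison. At 30 nmol/min against vehicle 0 of 47 member probes were called by limma, where 0% of all tested probes were, and 1 had an unadjusted p under 0.05, where 11.3% of all did. At 300 nmol/min the counts were 0, where 0.0112% of all were called, and 4, where 13.8% of all had such an unadjusted p. Between the doses 0 were called (0% of all), and 0 had an unadjusted p under 0.05 (3.01% of all). With both doses pooled against vehicle 0 were called (0.0336% of all), and 4 had such an unadjusted p (14.9% of all). Vehicle and senktide arrays did not overlap for 6 of the 47 probes at 30 nmol/min (19.5% of all), 3 of them higher (7.63% of all) and 3 lower (11.9% of all). At 300 nmol/min they did not overlap for 13 (25.5% of all), 8 of them higher (9.21% of all) and 5 lower (16.2% of all). With both doses pooled they did not overlap for 5 (11.3% of all), and between the doses for 0 (2.7% of all).

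The median difference over the 25 genes was −0.03 (log2) at 30 nmol/min and 0.03 at 300 nmol/min. Over all 6617 genes tested it was −0.11 at either dose, and 11 and 13 of the 25 genes had a difference above 0. Between the doses the median was 0.11 over the members and −0.01 over all genes. In that comparison 20 of the 25 differences were above 0, against 48.0% of all genes, and 0 passed the test. Same-numbered arrays of the 2 doses lay on the same slide, and a fit blocked by that number called 0 member probes between the doses. No pairing of the samples beyond the slide is shown. By number, 4 genes were higher at 300 than at 30 nmol/min in all 4 pairs (8.09% of all genes were), namely PRDX1, PRDX6, NFE2L2 (by 0.18 to 0.77) and FTH1 (by 0.09 to 0.17). Another 4 were lower in all pairs (9.01% of all genes were), namely PRDX4, TXN2, GSTP1 and MT2A. The MT2A probe was detected on 1 array of each dose and on none of slide 3, so its pairs 3 and 4 compare undetected values. With that block the adjusted p from limma was 0.997 for both NFE2L2 and FTH1. Where signals were scaled instead to the 75th percentile over all probes, the median of all tested probes shifted from −0.11 to 0.95 at 30 nmol/min and to 1.06 at 300 nmol/min, and the member medians to 1.03 and 1.21. Set against the median of all tested probes, the members then lay 0.08 and 0.14 above it. Both scalings move all probes of an array alike, so this gap could not change between them. With quantile normalization the gap was −0.21 and −0.12, and with normexp and quantile normalization −0.03 and 0.03.

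**Figure D3:**
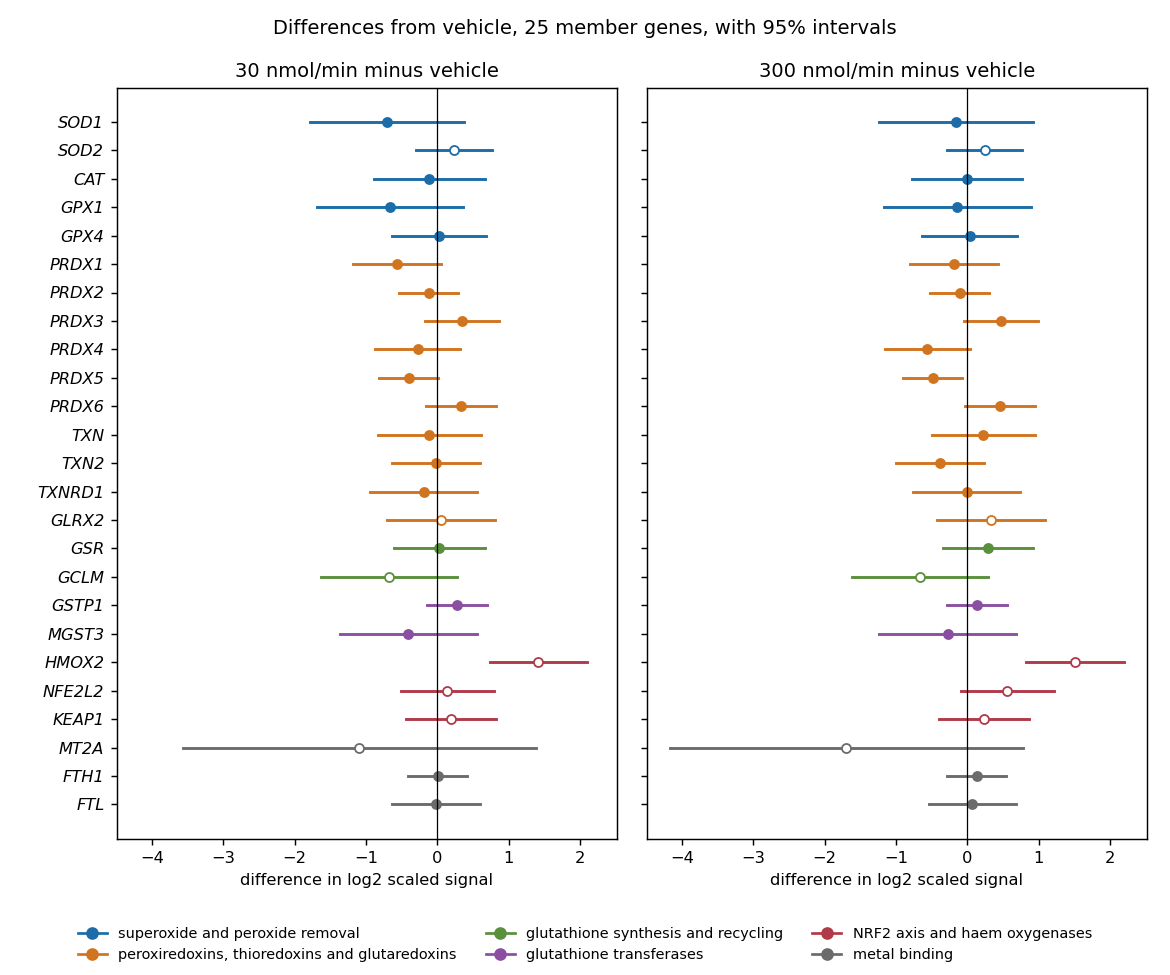
Difference in log2 scaled signal from vehicle for the 25 tested member genes at 30 nmol/min (left) and 300 nmol/min (right), with 95% intervals from the limma fit (n = 4 against 2); colours give the role, and open points mark genes not detected on either vehicle array. Intervals of HMOX2 lie above 0 in both panels and that of PRDX5 lies below 0 at 300 nmol/min, but none of the 25 passed adjustment over all probes.

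HMOX2 had the smallest p-value of the members, by a probe that entered the fit through senktide arrays alone. Haem oxygenases break haem into biliverdin, iron and carbon monoxide, and HMOX2 is the form that most tissues keep on. Its scaled signals were −4.12 and −2.997 in vehicle, neither detected. They were −2.27, −1.91, −2.18 and −2.21 at the lower dose and −2.33, −1.94, −1.78 and −2.13 at the higher dose, all detected. Every senktide array lay above both vehicle arrays, and the doses overlapped.

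The fitted HMOX2 difference was 1.42 (SE 0.30, limma adjusted p = 0.206) at 30 nmol/min and 1.51 (SE 0.30, limma adjusted p = 0.172) at 300 nmol/min. Vehicle gives only a bound. Under the main scaling the HMOX2 means lay at least 1.55-fold and at least 1.66-fold above it, a difference that was not called. Here each vehicle array was raised to its lowest signal well above background where the probe lay under it. The bound was at least 1.22-fold and 1.17-fold within slide 1, and at least 2.13-fold and 2.09-fold within slide 2. It was at least 1.33-fold and 1.43-fold without vehicle replicate 2, 1.81-fold and 1.94-fold without vehicle replicate 1, and 3.24-fold and 3.75-fold with the 75th percentile over all probes as the scale. With normexp background correction and quantile normalization the fitted HMOX2 difference was 0.45 and 0.53. That correction adds an offset of 50 to every signal, which shrinks log2 differences of dim probes. These values therefore cannot be set against the log2 bounds of 0.64 and 0.73 of the main scaling. With slide as a block the fitted differences were 1.40 (limma adjusted p = 0.205) and 1.496 (limma adjusted p = 0.151).

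HMOX2 was called under some alternatives, but its probe passed the detection filter only through senktide arrays, the side where it is high. These calls are given as a description. Without vehicle replicate 2 the limma adjusted p was 0.0300 at 30 nmol/min, 0.0241 at 300 nmol/min and 0.0178 with both doses pooled, but there the vehicle rests on 1 array, not well above background, that is assumed to vary like the other groups. Without vehicle replicate 1 it was 0.353, 0.308 and 0.269. With normexp and quantile normalization the limma adjusted p was 0.0443 at 300 nmol/min and 0.0358 pooled, and with quantile normalization alone 0.0447 pooled. Unscaled, the HMOX2 signal was 4.58 and 15.5 in vehicle, 37.1 and 26.6 on slides 1 and 2 at 30 nmol/min and 35.8 and 36.2 there at 300 nmol/min. The other HMOX2 probe, nearer the 5′ end, was detected on 1 array and was not tested. HMOX1, the stress-inducible form, was detected on none.

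NFE2L2 and KEAP1 were detected on 7 arrays each by the brightest probe and on no vehicle array. NFE2L2 read −3.78 and −3.91 in the vehicle arrays. At 30 nmol/min it read −3.55, −3.27, −4.13 and −3.89, and with the higher dose −3.14, −2.93, −3.36 and −3.71. The 300 nmol/min arrays lay above both vehicle arrays and the 30 nmol/min arrays did not. The difference was 0.14 (SE 0.29, limma adjusted p = 0.868) at 30 and 0.56 (SE 0.29, limma adjusted p = 0.404) at 300 nmol/min, and no fold is given because the vehicle bound lay above the senktide mean.

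NFE2L2 was also the lone member called under quantile normalization at 300 nmol/min (1.59, limma adjusted p = 0.0214). Its probe, too, passed the filter through senktide arrays alone, so the call is a description. A second NFE2L2 probe, detected on 2 arrays, differed by −0.54 (SE 0.54, limma adjusted p = 0.641). The 2 tested KEAP1 probes stood on opposite sides of 0 at 300 nmol/min, at 0.24 (SE 0.28, limma adjusted p = 0.696) and −0.22 (SE 0.25, limma adjusted p = 0.694). For KEAP1, as for NFE2L2, vehicle gives only a bound, and it leaves the direction unset at either dose.

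**Figure D4:**
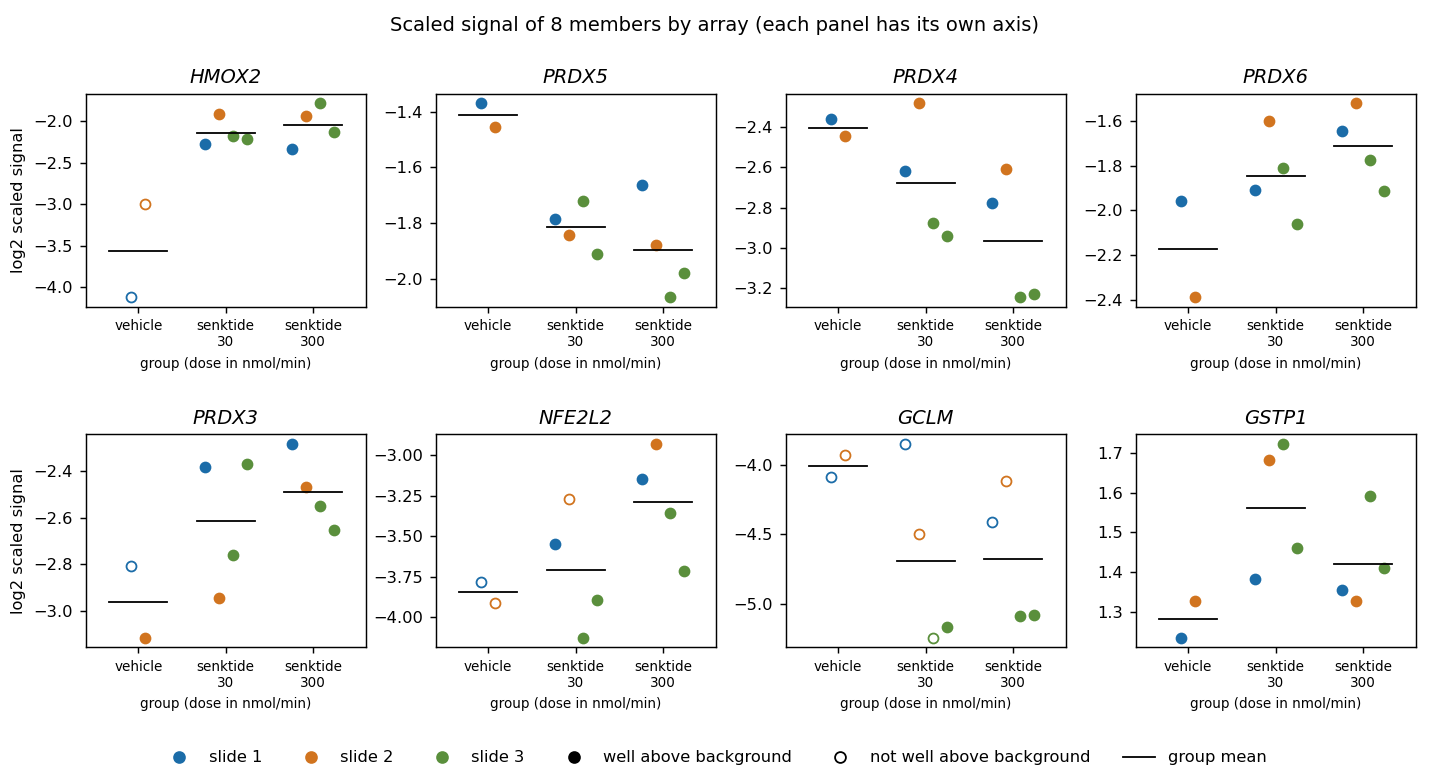
Log2 scaled signal on each of the 10 arrays for the 8 members with an unadjusted p under 0.05 or without overlap from vehicle; filled points were well above background, open points were not, colours give the slide and lines the group means. HMOX2 is open in vehicle and filled on all 8 senktide arrays, and GCLM splits by slide and not by dose.

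The peroxiredoxins reduce peroxides with a reactive cysteine, and most are recharged by thioredoxin. PRDX5 read −1.37 and −1.46 in the vehicle arrays. At 30 nmol/min it read −1.78, −1.84, −1.72 and −1.91, and with the higher dose −1.66, −1.88, −2.06 and −1.98. It was detected on all arrays, and every senktide array lay below both vehicle arrays. The difference was −0.40 (SE 0.18, limma adjusted p = 0.458) at 30 and −0.48 (SE 0.18, limma adjusted p = 0.309) at 300 nmol/min. Within slides 1 and 2 it was −0.29 and −0.42 at 300 nmol/min. Its sign depended on the scaling: with the 75th percentile over all probes the 300 nmol/min difference was 0.69, below the 1.06 of the median probe. A second tested PRDX5 probe, detected on 4 arrays and on none of vehicle, gave −0.03 (SE 0.75) at 300 nmol/min.

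PRDX6, the peroxiredoxin that also reduces phospholipid peroxides, has a pair of detected probes that share 54 bases. The brighter read −1.96 and −2.38 in vehicle, −1.91, −1.60, −1.81 and −2.06 at the lower dose, and −1.65, −1.52, −1.78 and −1.91 at the higher dose. Here the 300 nmol/min arrays lay above both vehicle arrays, and the 30 nmol/min arrays overlapped them. The 300 nmol/min difference was 0.46 (SE 0.22, limma adjusted p = 0.376) for this probe and 0.56 (SE 0.21, limma adjusted p = 0.305) for its overlapping partner. Another tested PRDX6 probe, detected on 4 arrays, gave −0.12 (SE 0.39).

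PRDX3, the mitochondrial peroxiredoxin, and PRDX4, that of the endoplasmic reticulum, lay on opposite sides of 0. PRDX3 stood at −2.81 and −3.11 in vehicle and at −2.29, −2.47, −2.55 and −2.65 at 300 nmol/min, without overlap, while its 30 nmol/min arrays spread from −2.94 to −2.37. Its difference at 300 nmol/min was 0.47 (SE 0.23, limma adjusted p = 0.385).

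PRDX4 stood at −2.36 and −2.45 in vehicle and at −2.78, −2.61, −3.24 and −3.23 at 300 nmol/min, also without overlap. Its difference was −0.56 (SE 0.27, limma adjusted p = 0.375), and −0.31 with slide as a block. On the 4 arrays of slide 3 PRDX4 lay between −3.24 and −2.88, below all arrays of slides 1 and 2.

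PRDX2, a cytosolic peroxiredoxin, varied little. Its brighter probe read 0.43 and 0.21 in vehicle, 0.17, 0.15, 0.38 and 0.11 at the lower dose and 0.13, 0.24, 0.10 and 0.39 at the higher dose, so the groups overlapped. The 95% interval of its 300 nmol/min difference ran from −0.52 to 0.31. PRDX1, the related cytosolic form, ranged from −2.37 to −1.15, with the top value in vehicle replicate 2, and differed by −0.57 (SE 0.27, limma adjusted p = 0.468) at 30 nmol/min.

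TXN, the cytosolic thioredoxin, ranged from −1.95 to −0.81 and differed by 0.23 (SE 0.32) at 300 nmol/min. Mitochondrial TXN2 read −1.62 and −2.47 in vehicle, −2.07, −2.18, −2.12 and −1.89 at the lower dose, and −2.59, −2.73, −2.22 and −2.15 at the higher dose. Its 2 vehicle arrays spanned most of the senktide values, and the 300 nmol/min difference was −0.38 (SE 0.27, limma adjusted p = 0.511). TXNRD1 ranged from −2.71 to −1.45, with both ends in the 30 nmol/min group. GLRX2, the mitochondrial glutaredoxin, was detected on 5 arrays and on no vehicle array, by a probe that leads to no RefSeq symbol. Its other probe, which leads to the symbol GLRX2, was detected on 0.

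Of the GLRXL probes that lead to GLRX, one was detected on 0 arrays and the others on all 10, within −1.20 to −0.54 and −1.45 to −0.75. They differed from vehicle by −0.12 (SE 0.22, limma adjusted p = 0.821) and 0.21 (SE 0.22, limma adjusted p = 0.649) at 300 nmol/min. Of the 10 member genes tested in this class, 0 were called at either dose.

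In superoxide and peroxide removal, 5 of 7 genes were tested and 0 were called. SOD2, the mitochondrial dismutase, was detected on all senktide arrays and no vehicle array. It ranged from −3.27 to −2.57 with overlapping groups. The fitted difference was 0.23 (limma adjusted p = 0.693) and 0.24 (limma adjusted p = 0.632) at the lower and higher dose. The bounds from the group means were 1.005-fold and 1.013-fold. At 300 nmol/min SOD2 differed by −0.16 within slide 1 and 0.60 within slide 2, so no least increase is set. A second tested SOD2 probe, detected on 4 arrays and on none of vehicle, gave −0.32 (SE 0.35, limma adjusted p = 0.676) at 300 nmol/min. SOD1, the cytosolic dismutase, differed by −0.71 (SE 0.48) and −0.16 (SE 0.48), and 1 array at 30 nmol/min, replicate 2, read −4.38 where the group's others read −3.42 to −2.48.

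For GPX4 the probe nearer the 3′ end read between −3.01 and −2.21 over all arrays and differed by 0.03 (SE 0.30, limma adjusted p = 0.971) at 300 nmol/min. The probe nearer the 5′ end, detected on 3 arrays, gave −1.08 (SE 0.42, limma adjusted p = 0.314). It was not detected on either vehicle array, so only a bound stands there. CAT differed by −0.11 at 30 nmol/min and by −0.0012 at 300 nmol/min, with an SE of 0.35. GPX1 differed by −0.66 at 30 and by −0.14 at 300 nmol/min, with an SE of 0.46, and its replicate 2 at 30 nmol/min read −4.28 where the group's others read −2.71 to −2.58.

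In glutathione synthesis and recycling, GSR ranged from −3.25 to −2.31 and differed by 0.29 (SE 0.28, limma adjusted p = 0.635) at 300 nmol/min. GCLM, the modifier subunit of the enzyme that makes the first bond of glutathione, was detected on 3 arrays, all on slide 3. It read −4.09 and −3.93 in vehicle, −3.85, −4.50, −5.24 and −5.17 at the lower dose, and −4.41, −4.12, −5.09 and −5.08 at the higher dose. The difference was −0.67 (SE 0.43, limma adjusted p = 0.468) at 300 nmol/min and −0.20 with slide as a block. GCLM was detected on no vehicle array, so vehicle gives only a bound, which leaves the direction unset.

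Among the transferases, which attach glutathione to reactive compounds, GSTP1 was detected on all arrays. It read 1.24 and 1.33 in vehicle, 1.38, 1.68, 1.72 and 1.46 at the lower dose, and 1.36, 1.33, 1.59 and 1.41 at the higher dose. All 8 senktide values lay above the vehicle values, the closest by less than 0.01. The differences were 0.28 (SE 0.19, limma adjusted p = 0.551) and 0.14 (SE 0.19, limma adjusted p = 0.739). MGST3, a microsomal transferase, had its top value, −1.85, on vehicle replicate 2, and the other vehicle array read −3.57.

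FTH1 varied little from array to array. It read 3.02 and 3.06 in vehicle, 3.07, 3.14, 3.09 and 2.87 at the lower dose and 3.18, 3.31, 3.25 and 2.96 at the higher dose. The groups overlapped, and the 300 nmol/min difference was 0.13 (95% interval −0.28 to 0.55). Its SD over the 10 arrays was 0.13, and 93.0% of the 2492 probes detected on all arrays had a larger one. Of its 6 probes, all detected on 10 arrays, 5 had SDs of 0.12 to 0.14 and the sixth 0.29. Over the 19 member probes of this kind the median SD was 0.24, as it was over all 2492.

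FTL was read through 5 probes. The brightest gave 1.42 and 0.73 in vehicle, 0.92, 1.36, 1.22 and 0.71 at the lower dose and 1.09, 1.35, 1.27 and 0.87 at the higher dose, with one vehicle array highest of all and the other second lowest. Its 300 nmol/min difference was 0.07 (SE 0.27, limma adjusted p = 0.917). The lower probe of the printed FTL pair gave −1.38 (SE 0.65, limma adjusted p = 0.374). That probe was not detected in vehicle, and its values follow the slide, as described next.

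Slide was also tested as a comparison of its own, slide 3 against slides 1 and 2 among the 8 senktide arrays with dose in the model. Of the 47 member probes, 3 were called by limma (15.2% of all tested probes), all of them lower on slide 3 (12.2% of all) and 0 higher (2.92% of all). An unadjusted p under 0.05 was found for 9 (28.5% of all), and the sides did not overlap for 7 (21.3% of all). The 3 called probes were the lower FTL probe, GCLM and an MT2A probe, for a metallothionein that binds zinc and copper. That MT2A probe leads to no RefSeq symbol and is unmapped. The other MT2A probes, which lead to the symbol MT2A, were detected on 0 arrays.

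The FTL probe read −4.33, −4.85, −5.15 and −4.95 on slide 3, against −3.66, −3.16, −3.26 and −3.19 on slides 1 and 2, a difference of −1.504 (SE 0.21, limma adjusted p = 0.00242). MT2A read −5.57, −6.32, −6.40 and −6.67 against −4.10, −2.60, −4.48 and −3.45. It was detected on 0 of 4 against 2 of 4 arrays, and it passed the filter through those 2 alone. The fitted difference was −2.59 (SE 0.37, limma adjusted p = 0.00242), with a bound of at least 3.32-fold lower that the other scaling given next does not keep. GCLM differed by −0.92 (SE 0.18, limma adjusted p = 0.0114), and for each of the 3 probes the sides did not overlap.

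All 3 probes were dim, and before scaling the sides were much closer. The unscaled FTL signal was 11.8 to 19.9 on slide 3 and 11.2 to 18.7 on slides 1 and 2. The unscaled GCLM signal was 10.6 to 14.2 against 4.40 to 12.4, and that of MT2A 4.75 to 8.41 against 8.06 to 16.5. The signal that set the scale was 400 to 482 on slide 3 and 99.6 to 180 on the senktide arrays of slides 1 and 2. With the 75th percentile over all probes as the scale, GCLM stood 0.57 higher on slide 3 and FTL differed by −0.01, while 44 of 47 member probes and 90.8% of all tested probes were called and MT2A differed by −1.10 (limma adjusted p = 0.00261). With normexp background correction and quantile normalization, 0 of the 3 passed (limma adjusted p = 0.697 for GCLM, 0.216 for FTL and 0.203 for MT2A). The offset of 50 in that correction draws dim signals together, so this setting cannot decide whether the 3 differ.

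**Figure D5:**
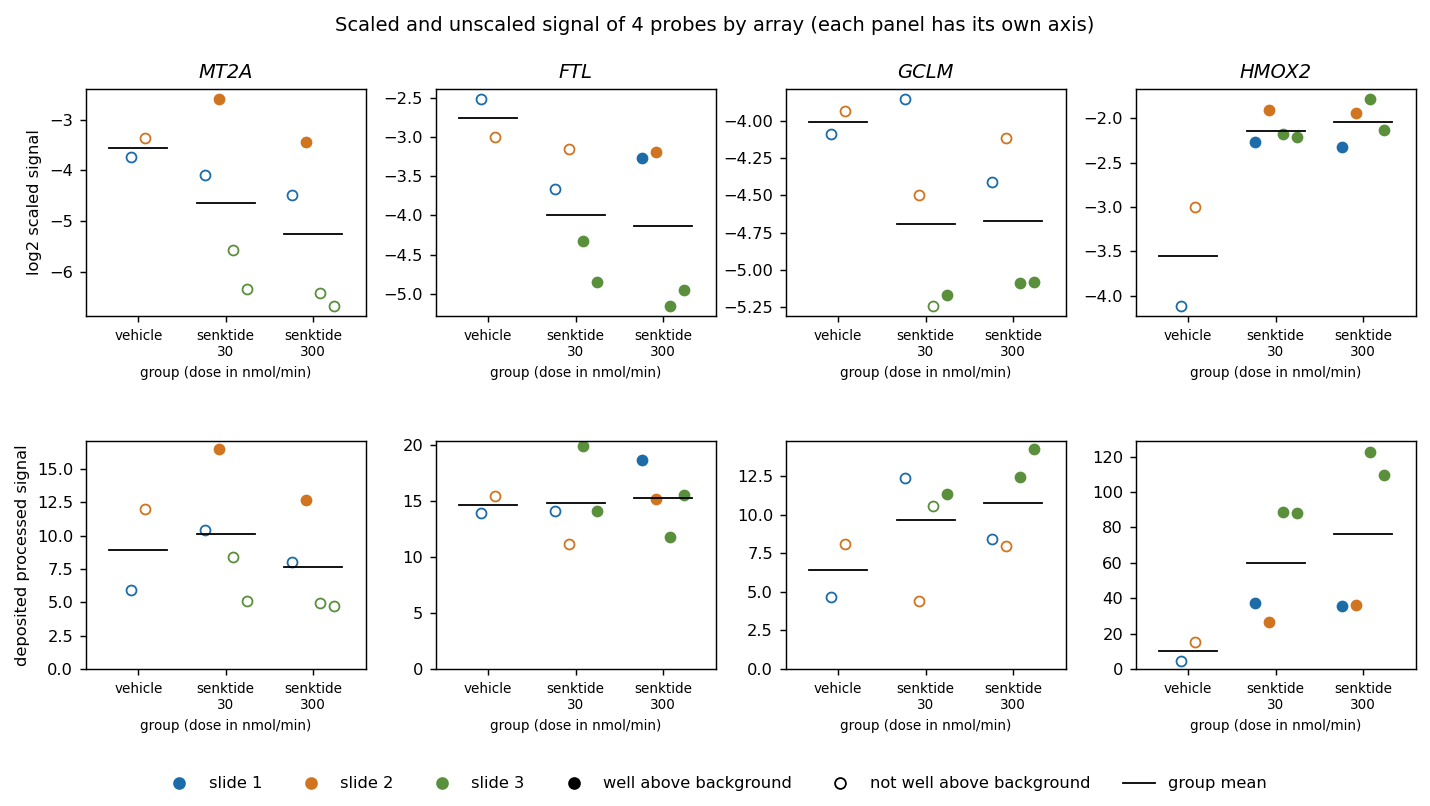
Log2 scaled signal (top) and deposited processed signal before scaling (bottom, axis from 0) on each array for the 3 member probes called between slides and for HMOX2; filled points were well above background and colours give the slide. FTL and GCLM split by slide in the top row and overlap in the bottom row, while HMOX2 is lowest in vehicle in both rows.

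Other genes around these systems were read too. A list of 150 other genes of NADPH supply, thiol handling, thioredoxin-fold proteins, selenoproteins, NRF2 partners and metal handling had 128 genes on the array and 63 tested. Of the 63, 0 were called by limma at either dose. At 30 nmol/min 5 had an unadjusted p under 0.05 with higher and 2 with lower signal, and at 300 nmol/min 3 and 6. Together these are 11.1% and 14.3% of the 63, beside 11.3% and 13.7% of all genes tested. The median difference was −0.03 and 0.07.

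The smallest p at 30 nmol/min belonged to AKR1A1, an aldehyde reductase that uses NADPH, which was not detected in vehicle and was detected on 4 and 3 arrays at the 2 doses. It differed by 1.63 (SE 0.40, limma adjusted p = 0.258) and 1.45 (SE 0.40, limma adjusted p = 0.226). AKR1A1 entered the fit through senktide arrays alone, and vehicle gives only a bound, so these fitted values do not set its size. At 300 nmol/min the smallest p belonged to SLC39A14, a zinc and iron importer, at −1.10 (SE 0.26, limma adjusted p = 0.180), which was detected on 1 array of each dose and none of vehicle. Vehicle gives only a bound for SLC39A14, so the direction of that difference is unset. CISD1, an iron-sulphur protein of the outer mitochondrial membrane, was detected on all 10 arrays. It stood at 0.66 (SE 0.19, limma adjusted p = 0.308) and 0.47 (SE 0.19, limma adjusted p = 0.333) above vehicle.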

How the data were processed

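The authors hybridised RNA of each sample to 1 single-colour Agilent bovine array. Per the file headers the deposited spot intensity comes from Feature Extraction 11.5.1.1 (the submitters' processing notes give 10.5.1.1), is background-subtracted within the array and names build Btau_3.1. Flags of 0 or 1 in the deposited files mark detected and outlier spots, and outliers were left out. The deposited series matrix holds log2 values of unstated scale. At least 99.98% of them lay within 0.01 of the log2 processed signal after subtraction of the array's percentile (75, all probes) and then of the probe's median. Medians of its columns were 0.216 and 0.118 for vehicle, 0.0447, 0.0659, −0.128 and −0.308 for the lower dose, and 0.159, −0.181, −0.276 and −0.227 for the higher.

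Groups and replicate numbers came from the titles. Spots of 1 probe were averaged. limma 3.58.1 (R 4.3.3, lmFit and eBayes) was fitted to all 10 arrays together, with a coefficient for each group, and checked on simulated data, and the number of arrays limits the precision. A probe detected on no array of a group gives only a bound there, and the adjusted p beside it is that of the fitted difference. Shares were compared by exact permutation (scipy 1.17.1). The members and lists were chosen with earlier results of these data known.

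Members were given by array where the representative probe had an unadjusted p under 0.05 in any of the 4 group comparisons or did not overlap vehicle at a dose (up to 20), or, up to 5 per role, where it was detected on all arrays, taken by number of detected probes and then by spread. Other members, and the slide-called FTL and MT2A probes, were described after their values were seen. From the wider list, the genes with the smallest p at each dose are named, with CISD1, which was chosen among the 6 smallest at 30 nmol/min. Same-numbered senktide samples deviated together (r = 0.493, 0.241, 0.444 and 0.322), but so did some with different numbers. For 30 with 300 nmol/min, replicates 1 with 2 gave r = 0.401, 2 with 1 0.124, 3 with 4 0.406 and 4 with 3 0.0896. The rest were below 0. The numbers follow the slides, and the correlations do not establish a pairing of samples by number. Alternatives covered scaling, background correction, filters, a floor, outlier spots, probe choice, slide and replicate blocks, left-out arrays, the series matrix and array weights.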

Additional observations from a re-analysis of the deposited data

Results flagged for a closer look

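In 5 of the 50 groups of 4 senktide arrays tested over the 25 member genes, 1 array stood apart by Dixon's criterion, which chance meets in about 1 group of 20. GPX1 read −4.28 on 30 nmol/min replicate 2, where the group's others read −2.71 to −2.58. GSR read −3.25 on the same array, where the others read −2.60 to −2.53, and neither gene was well above background there. GLRX2 read −3.48 on 300 nmol/min replicate 2 (others −4.42 to −4.28). KEAP1 read −3.998 on 30 nmol/min replicate 3 (others −3.35 to −3.22) and −3.82 on 300 nmol/min replicate 4 (others −3.33 to −3.24).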

How the results depend on the processing

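Across 25 alternatives, the count of called member probes stayed at 0 between the doses. Without vehicle replicate 2, HMOX2 was called, so the range over left-out arrays was 0 to 1 at 30 nmol/min, at 300 nmol/min and for both doses pooled. At 300 nmol/min 1 probe was called with quantile normalization (NFE2L2) and 1 with normexp and quantile normalization (HMOX2, limma adjusted p = 0.0443). HMOX2 and NFE2L2 entered the fit through senktide arrays alone. With both doses pooled, 2 were called with quantile normalization, 1 with normexp and quantile normalization and 1 among probes detected on at least 5 arrays. HMOX2's limma adjusted p ran from 0.0300 to 0.891 at 30 and from 0.0241 to 0.593 at 300 nmol/min.

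Member medians at 30 and 300 nmol/min were 1.03 and 1.21 (75th percentile of all probes), 1.30 and 1.46 (median of all probes), 0.11 and 0.25 (quantile), −0.19 and −0.19 (floor), −0.19 and −0.12 (mean of a gene's probes) and 1.03 and 1.21 (series matrix, 1.205 unrounded). They ran from −0.23 to −0.00973 and from −0.0105 to 0.12 without single arrays. Between the doses they were 0.23, 0.22 and 0.23 with the 75th percentile, the median and the series matrix, and 0.05 to 0.18 without single arrays. With slide or replicate number as a block the 300 nmol/min median was 0.13, and neither block called a member. Same-numbered vehicle and senktide arrays gave r = 0.263, 0.287, −0.000391 and −0.198. Deviations of the 2 vehicle arrays from their mean mirror each other, so these correlations cannot show whether the numbers pair.

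Between slides, 44 member probes were called with the 75th percentile of all probes, 46 with the median, 44 with the series matrix, 43 with no filter, 15 with the floor, 8 with quantile normalization, 6 with normexp and 1 among probes detected on all arrays. In the same order 90.8%, 94.2%, 90.8%, 80.2%, 44.3%, 25.4%, 20.4% and 6.02% of all tested probes were called, and the first 2 moved the median of all tested probes to 1.42 and 1.73. Without single arrays the count was 3 to 5, the highest without 30 nmol/min replicate 2. The medians there were 1.36, 1.67, 1.36, 0.089 and −0.0075 (75th percentile, median, series matrix, quantile and normexp), and −0.17 to −0.07 without single arrays.

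Signs turned for PRDX5 with the 75th percentile, the median and the series matrix (0.69, 0.94 and 0.69 at 300 nmol/min, 0.67, 0.93 and 0.67 pooled). Between slides they turned for GCLM (0.57, 0.87 and 0.56, and 0.37 with quantile normalization) and for FTL with the median (0.29). These values cover members whose main unadjusted p was under 0.05 and, between slides, the 3 called probes. Counting every turned sign, the 75th percentile of all probes turned 6 of the 12 members given by array at 30 and 5 at 300 nmol/min, but it moves all probes alike, by the shift of their median from −0.11 to 0.95 and 1.06. The cause was not tested. Most members lie near background, which limits what these arrays can show.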
